A study of Mus musculus with 3 samples.

Results

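CD8 T cells that carried Ccl5 transcripts in mouse blood are described here. They were taken from 3 droplet libraries by UMI counts, a UMI being 1 captured RNA molecule. A cell needed at least 500 UMIs and 200 genes, with at most 10% of its UMIs from mitochondrially encoded genes. It also needed at least 2 UMIs of Cd3d, Cd3e, Cd3g and Trac together, at least 2 of Cd8a and Cd8b1 together, no Cd4 UMI and at least 2 Ccl5 UMIs. Cells with 5% or more of UMIs from S100a8 and S100a9, or with 3 or more UMIs of Cd79a, Cd79b and Ms4a1, were left out as possible neutrophils and B cells. The cells were thus chosen by measured values of these genes, and levels of Ccl5 and of the gate's other genes are no finding about them. This gave 595 cells of the 29754 that passed the filters, and 595 of 2021 CD8 T cells. They numbered 108 in the HDCA+CLP library, 337 in the CLP library and 150 in the Sham library.

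All 3 groups were C57BL/6J mice and were labelled 12 h. The HDCA+CLP mice received HDCA and CLP, the CLP mice received CMC and CLP, and the label of the Sham mice names no CMC. The labels do not expand the abbreviations. HDCA is read here as the bile acid hyodeoxycholic acid, CLP as the sepsis surgery of ligating and puncturing the caecum, and CMC as carboxymethyl cellulose, a common dosing vehicle. Both the surgery and the CMC can therefore set CLP apart from Sham. The labels call the cells peripheral blood mononuclear cells, but the libraries also held neutrophils, and no sort is named. Each group is 1 library. How many mice went into a library is not stated. No difference between groups has a replicate check, and no test or p-value is given. The 95% intervals below come from counting error alone, and differences between mice or preparations lie outside them.

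Ccl5 is a chemokine that memory CD8 T cells store as messenger RNA and release quickly after stimulation, and NK cells make it too. Memory-like CD8 T cells are marked by Il2rb and Cxcr3, and when they recirculate through lymph nodes they keep Ccr7. Effector cells add granzymes, proteases that enter a target cell through pores formed by perforin and start its death. In sepsis, type I interferons and interferon-gamma act on most blood leukocytes, and lymphocytes are lost from blood.

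The cells had a median of 6816 UMIs in HDCA+CLP, 7837 in CLP and 10463 in Sham, and their UMIs summed to 862925, 2984350 and 1562158 in the same order. The median mitochondrial share was 3.60% in HDCA+CLP, 4.66% in CLP and 4.30% in Sham. No barcode was shared between libraries among these cells, and 4, 21 and 6 of them in the same order were called doublets by a simulation-based score and kept. Transcripts used as markers of other cell types differed between the libraries in these cells. The summed level of the neutrophil markers was 3794 CPM (UMI counts scaled to a total of 1000000) in HDCA+CLP, 2925 CPM in CLP and 56.3 CPM in Sham, while B cells of the same libraries had 7895, 5259 and 208 CPM. The monocyte markers summed to 640 CPM in HDCA+CLP, 838 CPM in CLP and 218 CPM in Sham, and at least 2 of their UMIs were present in 53.7%, 54.3% and 55.3% of the cells. The markers of NK cells summed to 424, 420 and 133 CPM in the same order. At least 2 NK marker UMIs were present in 13 cells of HDCA+CLP, 55 of CLP and 12 of Sham. B cell and platelet markers were highest in Sham instead. Those of B cells summed to 80.0 CPM in HDCA+CLP, 74.4 CPM in CLP and 225 CPM in Sham. At least 2 of their UMIs were present in 10.2%, 14.8% and 60.0% of the cells. Platelet markers summed to 1.16, 2.01 and 33.9 CPM in the same order. Of 7 markers of gamma-delta T cells, 3, 3 and 4 were at 0, and of 6 markers of NKT and MAIT cells, 5, 3 and 5 were at 0. Of the monocyte markers in Sham, Cst3 stood at 78.7 CPM in these cells, Ctss at 87.1 CPM and Lyz2 at 12.2 CPM. CD8 T cells without Ccl5 there had 83.3, 93.5 and 79.3 CPM of Cst3, Ctss and Lyz2. Monocytes there had 2825, 1735 and 21299 CPM of the same genes. Neutrophil transcripts were present to a different extent in each library. Whether marker UMIs came from other cells or from the T cells themselves was not tested. Their part in the differences between libraries was not tested either.

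The cells made up 28.3% of CD8 T cells in HDCA+CLP (interval 23.9 to 33.2%, 108 of 381 cells), 42.1% in CLP (38.6 to 45.6%, 337 of 801) and 17.9% in Sham (15.3 to 20.6%, 150 of 839). The 3 intervals did not overlap, and the share was 2.35-fold higher in CLP than in Sham (log2 ratio 1.23, interval 0.95 to 1.52) and 1.48-fold lower in HDCA+CLP than in CLP (-0.57, -0.90 to -0.25). CD8 T cells themselves were a similar share of T cells in the 3 libraries, at 27.3% in HDCA+CLP, 25.3% in CLP and 27.2% in Sham. Among all cells past the filters the cells with Ccl5 were 0.898% in HDCA+CLP, 3.11% in CLP and 2.18% in Sham. That denominator also carries the neutrophils, which numbered 8742 in HDCA+CLP, 4718 in CLP and 222 in Sham. Outside the neutrophil gate the shares were 3.29% in HDCA+CLP, 5.50% in CLP and 2.25% in Sham.

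The cells were deepest in Sham, so each cell was also thinned to 2000 UMIs and gated again. Among CD8 T cells, 2 in HDCA+CLP, 2 in CLP and 1 in Sham had fewer UMIs and were left out. Many more no longer met the CD3 and CD8 limits after thinning. The CD8 T cells fell from 381 to 170 in HDCA+CLP, from 801 to 302 in CLP and from 839 to 617 in Sham. This loss differed between the libraries, so the thinned shares do not describe the same cells. The share was then 27.1% in HDCA+CLP (46 of 170, interval 20.5 to 34.4%), 37.1% in CLP (112 of 302, 31.6 to 42.8%) and 9.08% in Sham (56 of 617, 6.93 to 11.6%). After thinning the intervals of HDCA+CLP and CLP overlapped, and that of Sham lay below both. Ccl5 also occurred in B cells, monocytes and neutrophils, and whether those cells made it was not tested. At least 2 Ccl5 UMIs were found in 0 of 274 B cells of HDCA+CLP, which allows a share of up to 1.34%, in 6.79% of 280 B cells of CLP and in 0.651% of 2613 B cells of Sham. The B cells had medians of 2703, 3284 and 4264 UMIs in the same order. Monocytes, which were deeper, had at least 2 Ccl5 UMIs in 9.59% of cells in HDCA+CLP, 16.4% in CLP and 0% in Sham. Neutrophils had them in 1.22%, 6.17% and 0.450% of cells in the same order. The CLP library, with the highest share of CD8 T cells with Ccl5, was thus also the one with most Ccl5 in B cells, monocytes and neutrophils.

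**Figure D1:**
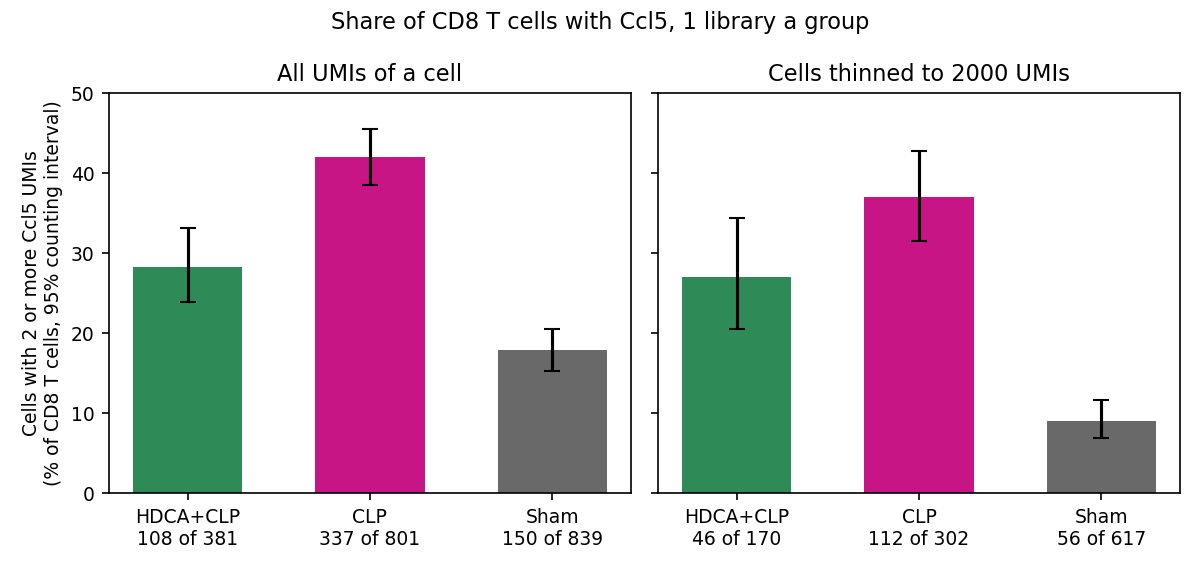
Share of CD8 T cells with at least 2 Ccl5 UMIs in each library (percent, vertical axis), from all UMIs of a cell (left) and after thinning each cell to 2000 UMIs (right); bars are 1 library each and error bars are 95% Clopper-Pearson intervals for counting error. CLP is highest in both panels (42.1% and 37.1%), HDCA+CLP lies between (28.3% and 27.1%) and Sham is lowest (17.9% and 9.08%).

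Ccl5 per cell spanned a wide range, with a median of 15.5 UMIs in HDCA+CLP, 28 in CLP and 14.5 in Sham and a highest cell of 251, 478 and 591 UMIs in the same order. Cells just inside the limit, with 2 to 3 UMIs, were 18.5% of the HDCA+CLP cells, 12.5% of the CLP cells and 18.7% of the Sham cells. Cells just outside it, with 1 UMI, numbered 26, 118 and 50 in the same order and were not members. At 10 or more UMIs, which none of the HDCA+CLP B cells, 1.79% of the CLP B cells and 0.536% of the Sham B cells reached, the cells were 53.7% of the members in HDCA+CLP, 74.5% in CLP and 56.0% in Sham. Monocytes reached 10 or more Ccl5 UMIs in 5.54% of cells in HDCA+CLP, 6.88% in CLP and 0% in Sham. The share of CD8 T cells at that limit differed more between libraries than at 2 UMIs, with log2 ratios of -1.04 for HDCA+CLP against CLP and 1.65 for CLP against Sham. Lef1, a transcription factor of naive and early memory T cells, was lower in cells with 2 or more Ccl5 UMIs than in cells with 0 or 1 in every library. It stood at 263 CPM in the HDCA+CLP cells with 2 to 3 UMIs and 496 CPM in those with 1 UMI, at 311 and 420 CPM in CLP, and at 333 and 460 CPM in Sham. Il2rb, the receptor chain through which memory cells receive interleukin-2 and interleukin-15, stood at 282 and 137 CPM across the same 2 bins in HDCA+CLP, at 165 and 120 CPM in CLP and at 114 and 83.6 CPM in Sham.

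The label of memory-like cells was checked against genes outside the gate. Levels with and without Ccl5 within a library are a description, since Ccl5 chose the cells, and no test is drawn from them. Of 3999 genes measured in both populations of all 3 libraries, 34 (0.850%) were at least 2-fold higher with Ccl5 in every library and 8 (0.200%) were at least 2-fold lower. Ccl5 itself, which the gate sets apart, is among the 34 and in the single-library counts of higher genes. Within single libraries the share of measured genes at least 2-fold higher was 9.99% in HDCA+CLP, 5.05% in CLP and 1.32% in Sham, and the share at least 2-fold lower was 2.15%, 1.31% and 0.716% in the same order. Cxcr3, a chemokine receptor that leads memory and effector T cells to inflamed tissue, stood at 98.5 CPM with and 8.03 CPM without Ccl5 in HDCA+CLP, at 60.0 and 7.59 CPM in CLP, and at 71.1 and 7.11 CPM in Sham. Il2rb stood at 277 and 77.9 CPM in HDCA+CLP, 300 and 103 CPM in CLP, and 253 and 64.0 CPM in Sham. Both genes were further apart between the populations of every library than between the libraries, where Cxcr3 ran from 60.0 to 98.5 CPM with Ccl5. Nkg7, a granule protein of cytotoxic lymphocytes, had log2 ratios of 2.21 in HDCA+CLP, 1.85 in CLP and 0.83 in Sham. The other genes high with Ccl5 by the naming rule were Ctla2a, Hopx, Il18r1, Ly6c2, Ybx3, Bcl2a1b, Itgb1, Lgals1, Stmn1 and Hist1h2ap. Ly6c2, a surface protein of memory CD8 T cells, had ratios of 1.50, 1.57 and 1.87 in HDCA+CLP, CLP and Sham.

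Several naive and homing genes were lower with Ccl5 but present. Ccr7, the receptor that guides T cells into lymph nodes, stood at 152 CPM with and 295 CPM without Ccl5 in HDCA+CLP, at 141 and 315 CPM in CLP, and at 234 and 405 CPM in Sham. Il7r, the receptor for the survival factor interleukin-7, stood at 680 and 1044 CPM in HDCA+CLP, 721 and 890 CPM in CLP, and 849 and 813 CPM in Sham. The lowest ratios by the naming rule belonged to Igfbp4, Rgcc, Pmepa1, Ssbp2, Dapl1, Fam241a, Lef1 and Ccr7. Igfbp4, which marks naive T cells, had log2 ratios of -2.73 in HDCA+CLP, -3.88 in CLP and -1.67 in Sham. Klrg1, a receptor of short-lived effector cells, had 5.79 CPM in HDCA+CLP, 4.36 CPM in CLP and 17.3 CPM in Sham. Cx3cr1, a receptor of effector cells in vessels, had 11.6, 12.7 and 46.7 CPM in the same order. In Sham, the cell with most Klrg1 UMIs held 33.3% of them, and the cell with most Cx3cr1 UMIs held 38.4%. After thinning, a Cx3cr1 UMI was present in 3.70% of cells with Ccl5 in HDCA+CLP, 2.97% in CLP and 4.67% in Sham. For Klrg1 the shares were 0%, 0.593% and 4.67% in the same order. The intervals of the libraries overlapped for both genes. Without Ccl5, Klrg1 had 0 UMIs in every library and Cx3cr1 had 0, 1.01 and 0.813 CPM in HDCA+CLP, CLP and Sham. The 19 genes of the terminal effector list summed to 11553 CPM with and 1465 CPM without Ccl5 in HDCA+CLP, 7386 and 2095 CPM in CLP, and 4211 and 1724 CPM in Sham. The 27 genes of the memory list summed to 8148 and 5660 CPM in HDCA+CLP, 7494 and 4880 CPM in CLP, and 6819 and 5320 CPM in Sham. By these sums the terminal effector list was further apart by Ccl5 than the memory list in every library. By the ratio of median shares of a cell's UMIs, it was so in HDCA+CLP and CLP but not in Sham. The Sham medians were 0.188% with and 0.153% without Ccl5 for the terminal effector list, and 0.661% and 0.522% for the memory list. The highest Sham cell with Ccl5 had 4.90% of its UMIs from the terminal effector list. The memory-like label rests on single genes. Of the 3 markers given for these cells, Cd8b1 and Ccl5 are used by the gate and only Nkg7 lies outside it. Cd8b1, a chain of the CD8 co-receptor, stood at 681 CPM in HDCA+CLP, 512 CPM in CLP and 946 CPM in Sham.

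**Figure D2:**
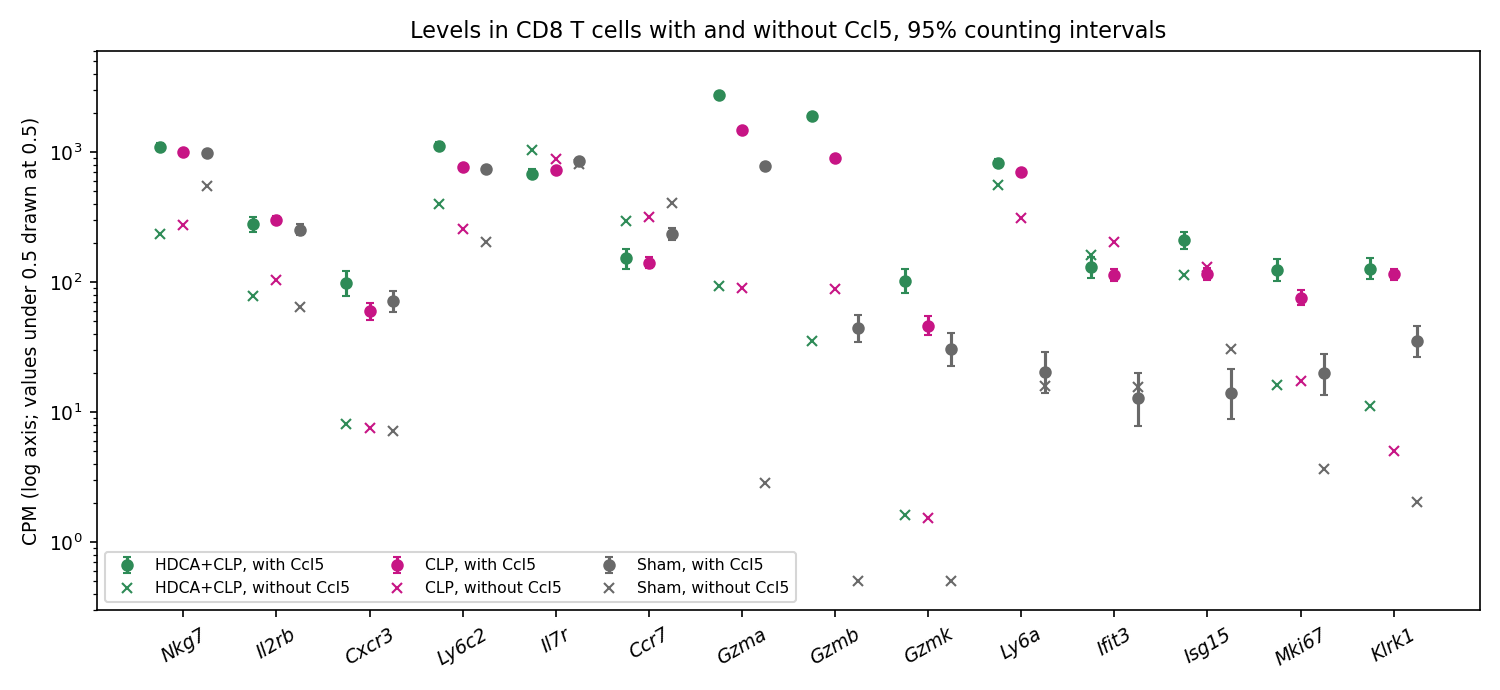
Levels of named genes (CPM, logarithmic vertical axis) in CD8 T cells with Ccl5 (circles, with 95% Poisson intervals for counting error) and without Ccl5 (crosses), 1 library a group; levels under 0.5 CPM are drawn at 0.5. Cxcr3 and Il2rb are set apart by Ccl5 in every library (98.5 against 8.03 CPM for Cxcr3 in HDCA+CLP), whereas Ly6a is set apart by library (823 CPM in HDCA+CLP, 699 in CLP and 20.5 in Sham with Ccl5).

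Differences between libraries were read by a fold rule on summed UMIs. A gene was measured where its mean over the 3 libraries was at least 20 CPM, which held for 4694 genes. A gene high with CLP enters that mean through both the CLP and the HDCA+CLP library, and one high in Sham through Sham alone. The limit thus favours genes higher in CLP than in Sham, in the counts over all genes and in the gene lists. In CLP against Sham, 307 of these (6.54%) were at least 2-fold higher and 72 (1.53%) at least 2-fold lower. The median log2 ratio of all measured genes was 0.10 in that comparison and 0.13 in HDCA+CLP against CLP. Size factors from medians of ratios lower every log2 ratio by 0.11 and 0.14 in the same order. List medians are read against these shifts. A level was taken as one that free RNA could supply where it was under 20% of the level in neutrophils, monocytes, B cells or NK cells of the same library. The 10 highest genes past that limit in CLP, ranked by the interval bound nearest to 0, were Cxcl10, Ly6a, Oasl2, Ifit1, Gadd45g, Iigp1, Cysltr2, Serpina3g, Ifit3 and Isg15. Most are interferon-induced by textbook knowledge, and all are counted against the same background of 6.54%.

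Interferon-induced genes stood mostly above their Sham level in CLP. Over all measured genes, 6.54% were at least 2-fold higher in CLP and 1.53% at least 2-fold lower. Of the 37 genes of the type I interferon list 24 were measured, and 17 of these were at least 2-fold higher in CLP than in Sham and none at least 2-fold lower, with a median log2 ratio of 1.44, against 0.10 over all genes. Of the 23 past the free RNA limit 16 were at least 2-fold higher. The median ran from 1.32 to 1.67 over the alternative settings. Ly6a, a surface protein induced by interferon and by activation, had 823 CPM in HDCA+CLP, 699 CPM in CLP and 20.5 CPM in Sham. The log2 ratio was 5.09 for CLP against Sham (4.59 to 5.64) and 0.24 for HDCA+CLP against CLP (0.11 to 0.36). HDCA+CLP and CLP were far above Sham and close to each other. Ifit1, which binds foreign RNA ends, had 84.6 CPM in HDCA+CLP, 46.9 CPM in CLP and 3.20 CPM in Sham. Ifit3, its partner, had 131, 114 and 12.8 CPM in the same order. Isg15, a ubiquitin-like modifier, had 211 CPM in HDCA+CLP, 115 CPM in CLP and 14.1 CPM in Sham. All 3 were lowest in Sham, at log2 ratios of 3.87 for Ifit1, 3.15 for Ifit3 and 3.03 for Isg15 in CLP against Sham. Oasl2, another antiviral gene, stood at 35.9, 29.8 and 1.92 CPM in the same order. Ifit3 has a near copy in Ifit3b and Ly6a has relatives in its cluster, so their UMIs may be split between copies.

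The promoters of Ifit1, Ifit3 and Isg15 are shown because they hold a core form of the interferon-stimulated response element, the sequence that factors activated by type I interferon bind. Among the genes of the type I list that hold it, are past the free RNA limit and were at least 2-fold higher in CLP, these 3 had the highest lower bounds of that ratio. They were thus chosen by the difference between CLP and Sham itself. Each line gives the 250 bases before the start site on the gene's strand from RefSeq, build GRCm38.p6, at chr19:34640639-34640888 (+) for Ifit1, chr19:34583279-34583528 (+) for Ifit3 and chr4:156200819-156201068 (-) for Isg15. Capitals mark TTTCNNTTTC, searched on both strands with overlaps allowed; a match is a description of the letters and not a binding site.
Ifit1: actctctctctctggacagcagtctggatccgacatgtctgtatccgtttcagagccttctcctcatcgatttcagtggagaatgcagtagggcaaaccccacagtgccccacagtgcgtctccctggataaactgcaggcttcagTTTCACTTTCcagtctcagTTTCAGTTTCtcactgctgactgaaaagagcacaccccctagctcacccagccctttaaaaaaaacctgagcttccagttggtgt
Ifit3: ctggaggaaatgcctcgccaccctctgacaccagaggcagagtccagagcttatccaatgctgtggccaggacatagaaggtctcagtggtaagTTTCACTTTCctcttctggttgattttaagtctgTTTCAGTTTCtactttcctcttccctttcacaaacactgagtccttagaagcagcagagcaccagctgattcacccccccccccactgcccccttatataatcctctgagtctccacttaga
Isg15: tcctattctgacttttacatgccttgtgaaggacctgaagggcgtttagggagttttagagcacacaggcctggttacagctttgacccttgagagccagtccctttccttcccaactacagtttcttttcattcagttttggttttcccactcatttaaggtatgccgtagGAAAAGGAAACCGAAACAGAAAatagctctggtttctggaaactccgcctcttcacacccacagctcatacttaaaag
Ifit1 and Ifit3 each hold the motif 2 times on the gene's strand, starting 104 and 85 bases before the start site in Ifit1 and 156 and 122 bases before it in Ifit3. Isg15 holds it 3 times on the opposite strand, in overlapping copies. The motif occurred in 936 of 27025 genes with a promoter entry (3.5%) and in 13 of 27 genes of the type I interferon list that had one (48.1%). Of the 17 genes at least 2-fold higher in CLP, 13 had an entry and 5 of these held the motif (38.5%). In the interferon-gamma list 11 of 17 genes with an entry held it (64.7%), as did 8 of 12 of those at least 2-fold higher in CLP (66.7%), so the motif was not particular to the type I list.

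The difference between CLP and Sham was seen in most cells. The 24 genes took a median of 0.343% of a cell's UMIs in HDCA+CLP, 0.246% in CLP and 0.0879% in Sham. In CLP, 317 of 337 cells (94.1%) were above the Sham median, and in HDCA+CLP 71 of 108 cells (65.7%) were above the CLP median. CD8 T cells without Ccl5 showed the same order of libraries, with medians of 0.296% in HDCA+CLP, 0.270% in CLP and 0.106% in Sham. In those cells the list had a median log2 ratio of 1.75 in CLP against Sham, with 19 of 27 measured genes at least 2-fold higher. Whether cells with and without Ccl5 differ in this response was not tested.

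**Figure D3:**
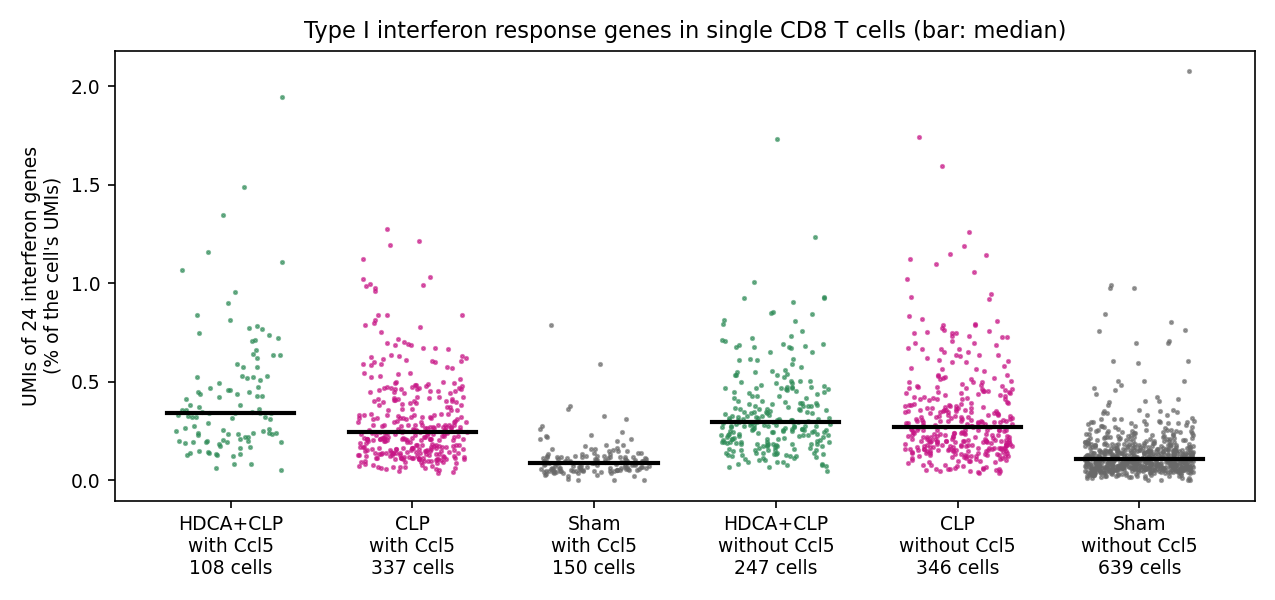
Share of each cell's UMIs from 24 genes of the type I interferon list (percent, vertical axis) in CD8 T cells with Ccl5 (left 3 columns) and without Ccl5 (right 3); each point is 1 cell and the bar is the median. With Ccl5 the medians are 0.343% in HDCA+CLP, 0.246% in CLP and 0.0879% in Sham, and the cells of the 3 libraries overlap.

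Genes induced by interferon-gamma and genes of antigen presentation were higher as well. The share of all measured genes at least 2-fold higher in CLP than in Sham was 6.54%. Of the 18 measured genes of the interferon-gamma list, 16 were at least 2-fold higher in CLP than in Sham, with a median log2 ratio of 1.68. Iigp1, a GTPase that attacks the vacuoles of intracellular pathogens, had 52.1 CPM in HDCA+CLP, 44.6 CPM in CLP and 3.84 CPM in Sham. Irf1, a transcription factor downstream of interferon-gamma, had 178, 143 and 69.8 CPM in the same order. Serpina3g, a protease inhibitor of activated T cells that belongs to a cluster of near copies, differed in order, with 25.5 CPM in HDCA+CLP, 71.0 CPM in CLP and 7.68 CPM in Sham. Cxcl10, a chemokine that attracts Cxcr3-bearing cells, had 109, 96.5 and 0.64 CPM in the same order, but 1 cell held 90.4% of its UMIs in HDCA+CLP and 54.9% in CLP. Its log2 ratio of 7.24 in CLP against Sham (4.75 to 12.54) was -0.32 once cells with markers of other lineages were left out. Of 22 measured genes of MHC class I presentation, 4 were at least 2-fold higher and 21 had a ratio above 0, with a median log2 ratio of 0.57. Over all measured genes 60.2% had a ratio above 0 in this comparison. Tap1, which carries peptides into the endoplasmic reticulum, had 213 CPM in HDCA+CLP, 188 CPM in CLP and 76.2 CPM in Sham. B2m, the light chain of MHC class I, had 1941, 2127 and 1471 CPM in the same order.

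Among cytotoxic genes, 2 of the 18 measured were at least 2-fold higher in CLP than in Sham and none at least 2-fold lower, with a median log2 ratio of 0.48. These counts stand beside 6.54% higher and 1.53% lower among all measured genes. No gene of the 12 past the free RNA limit reached 2-fold. Gzmb, a granzyme made by activated killer cells, had 1897 CPM in HDCA+CLP, 903 CPM in CLP and 44.2 CPM in Sham. The log2 ratio was 4.35 for CLP against Sham (4.01 to 4.72) and 1.07 for HDCA+CLP against CLP (0.98 to 1.16). NK cells of the same libraries held 5468, 4975 and 936 CPM, so the level in CLP was under 20% of that in NK cells, while B cells held 0, 116 and 2.61 CPM and CD8 T cells without Ccl5 held 35.3, 88.6 and 0 CPM in the same order. Without cells bearing at least 2 marker UMIs of monocytes, platelets, NK cells or gamma-delta T cells, the Gzmb ratio in CLP against Sham was 4.31. Gzma, the other major granzyme, had 2753 CPM in HDCA+CLP, 1485 CPM in CLP and 776 CPM in Sham, and in Sham 1 cell held 52.3% of its UMIs. Gzmk, a granzyme of memory cells, had 102, 46.2 and 30.7 CPM in the same order. All 3 granzymes were highest in HDCA+CLP and lowest in Sham. Prf1, which encodes perforin, had log2 ratios of 0.64 for HDCA+CLP against CLP (0.25 to 1.02) and -0.04 for CLP against Sham (-0.40 to 0.33). Ifng, the gene of interferon-gamma, had 15.1 CPM in HDCA+CLP, 19.1 CPM in CLP and 11.5 CPM in Sham. Xcl1, a chemokine for cross-presenting dendritic cells, stood at 5.79, 7.37 and 12.2 CPM in the same order.

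After thinning to 2000 UMIs, a Gzmb UMI was present in 40.7% of the cells with Ccl5 in HDCA+CLP (55.6% unthinned), 32.9% in CLP (48.4%) and 6.00% in Sham (9.33%). The thinned share in B cells was 0% in HDCA+CLP (0 of 239, which allows up to 1.53%), 4.17% in CLP and 0.196% in Sham, so the shares in the cells with Ccl5 were above that background in each library. A Gzmk UMI was present in 13.9% of the cells in HDCA+CLP, 5.04% in CLP and 4.67% in Sham after thinning, and in no B cell, which allows up to 1.53%, 1.39% and 0.144% of B cells in the same order. Gzmk was seen mostly in the cells with Gzmb, since 14 of 15 Gzmk-bearing cells in HDCA+CLP, 12 of 17 in CLP and 4 of 7 in Sham also had Gzmb. Il7r was present in 40.9% of cells with Gzmb and 85.9% of those without in HDCA+CLP, 55.0% and 73.9% in CLP, and 11.1% and 79.4% in Sham. After thinning, the cells with Ccl5 thus held a Gzmb-bearing part with Il7r in a smaller share of cells and a larger part without a Gzmb UMI. Thinning removes UMIs, and unthinned the part with Gzmb was the larger in HDCA+CLP, at 55.6%. The Sham values rest on 9 cells with Gzmb.

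Granzyme levels were also set out by the amount of Ccl5 in a cell. In CLP, Gzmb stood at 120 CPM in cells with 2 to 3 Ccl5 UMIs, 208 CPM with 4 to 9, 619 CPM with 10 to 39 and 1568 CPM with 40 or more. In HDCA+CLP it stood at 1158, 2105, 1299 and 2802 CPM across the same bins. In Sham it was at 0 CPM in every bin but the last, which had 166 CPM. The summed Gzmb level in HDCA+CLP was thus 1158 CPM even at 2 to 3 Ccl5 UMIs, where the bin has 20 cells. In CLP it was highest in the cells with most Ccl5. These are sums over the cells of a bin, so few cells can supply them.

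**Figure D4:**
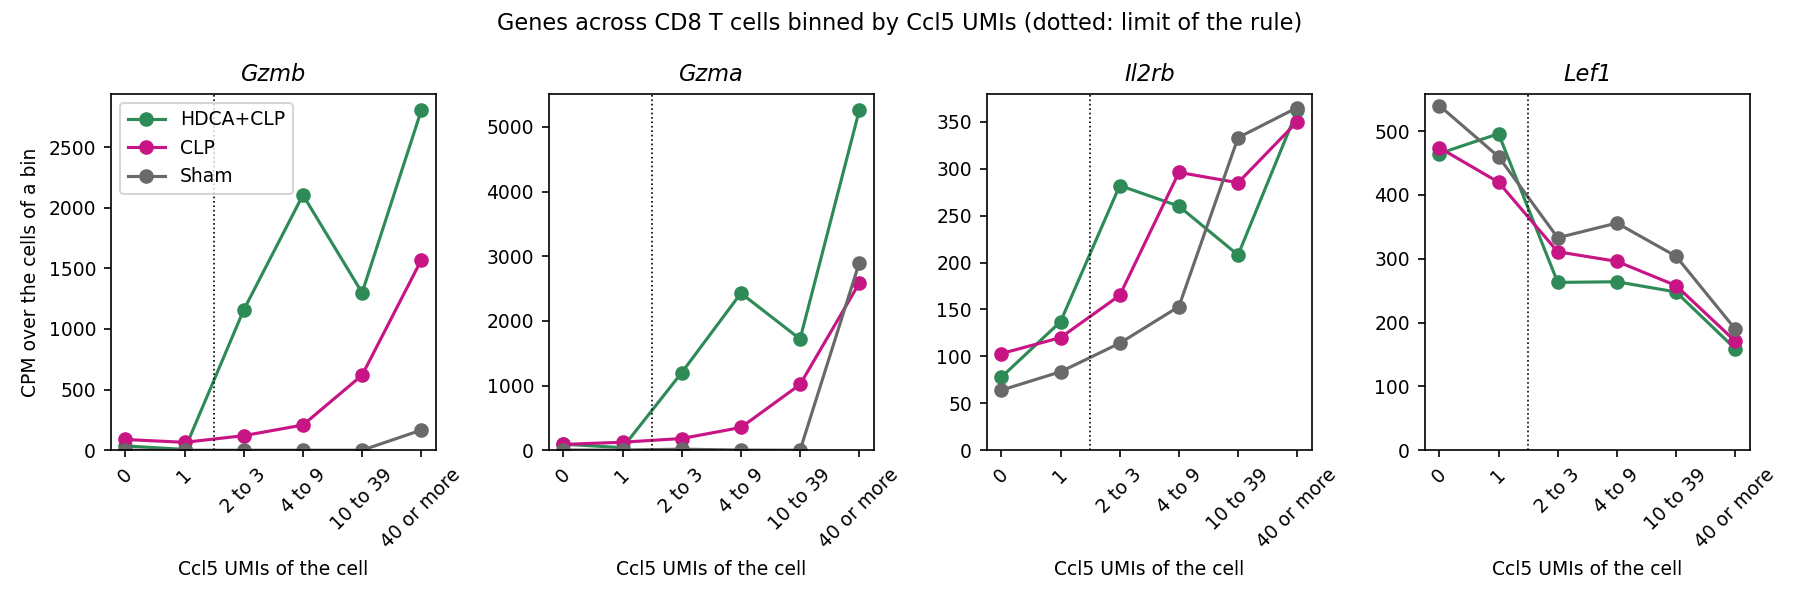
Levels of Gzmb, Gzma, Il2rb and Lef1 (CPM over the cells of a bin, vertical axes starting at 0 with a scale for each gene) in CD8 T cells binned by their Ccl5 UMIs (horizontal axis), 1 line a library; the dotted line marks the limit of 2 UMIs. Gzmb is at 1158 CPM or more in all bins right of the limit in HDCA+CLP, climbs to 1568 CPM in CLP and is at 166 CPM in the last bin of Sham, while Lef1 ends at 159, 171 and 190 CPM in HDCA+CLP, CLP and Sham.

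Memory genes lay on both sides of a ratio of 0 in CLP against Sham. At least 2-fold higher were 6.54% of all measured genes, and at least 2-fold lower 1.53%. Of 27 measured genes of the memory list, 5 were at least 2-fold higher and 2 at least 2-fold lower in CLP, with a median log2 ratio of 0.04, under the 0.10 of all genes. Il2rb had 277 CPM in HDCA+CLP, 300 CPM in CLP and 253 CPM in Sham, and Tcf7, a factor of self-renewing memory cells, had 255, 305 and 334 CPM in the same order. Id2, a factor of effector and memory CD8 T cells, had 363 CPM in HDCA+CLP, 505 CPM in CLP and 192 CPM in Sham. Its log2 ratio was 1.40 in CLP against Sham (1.22 to 1.58). Of 19 measured genes of the terminal effector list, 7 were at least 2-fold higher and 1 at least 2-fold lower, and of the 9 past the free RNA limit 2 were higher. Vim, an intermediate filament protein, had 1027 CPM in HDCA+CLP, 773 CPM in CLP and 373 CPM in Sham. Monocytes of the same libraries had 2518, 2904 and 1814 CPM of Vim, and their part in this difference was not tested. S1pr5, a receptor that lets effector and NK cells leave tissues, had 2.32, 2.35 and 18.6 CPM in the same order.

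Medians of the homing and trafficking lists were below 0 in CLP against Sham, with few genes 2-fold apart beside 6.54% higher and 1.53% lower over all genes. None of the 18 measured genes of the naive and homing list was at least 2-fold higher and 3 were at least 2-fold lower, with a median log2 ratio of -0.31. Dapl1, found in naive and memory CD8 T cells, had 86.9 CPM in HDCA+CLP, 91.5 CPM in CLP and 275 CPM in Sham. Igfbp4 had 27.8, 19.1 and 64.0 CPM in the same order. Ccr7 had 152 CPM in HDCA+CLP, 141 CPM in CLP and 234 CPM in Sham, under 2-fold apart. Of 22 trafficking receptors and integrins, 3 were at least 2-fold higher and 2 at least 2-fold lower, so more were higher than lower by that rule, while 16 had a ratio below 0, beside 39.8% of all genes, and the median was -0.37. Itgb1, an integrin chain for adhesion to matrix, had 57.9, 67.4 and 154 CPM in the same order, a log2 ratio of -1.20 in CLP against Sham that was -0.15 without cells bearing markers of other lineages. Itga4, which pairs with Itgb1 or Itgb7 for adhesion to vessel walls, had 227 CPM in HDCA+CLP, 138 CPM in CLP and 220 CPM in Sham.

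The 10 lowest genes in CLP against Sham were Mdn1, Clec2d, Dtx1, Ddx17, Igfbp4, Arl5c, Dapl1, Mxd4, Chd3 and Macf1. Clec2d, a lectin-like ligand of an NK cell receptor, had 39.4 CPM in HDCA+CLP, 44.9 CPM in CLP and 156 CPM in Sham, and Ddx17, an RNA helicase, had 45.2, 27.5 and 91.5 CPM in the same order. B cells of the same libraries held Clec2d at 50.7, 60.3 and 170 CPM and Ddx17 at 66.0, 42.1 and 127 CPM. In B cells, too, both genes were higher in Sham than in the other libraries.

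Other lists held fewer genes 2-fold apart than the interferon lists. Their counts stand beside 6.54% of all measured genes at least 2-fold higher in CLP than in Sham and 1.53% at least 2-fold lower. Of 10 measured inhibitory genes, 3 were at least 2-fold higher in CLP than in Sham and none lower. Ctla4, which limits co-stimulation, had 53.3 CPM in HDCA+CLP, 49.9 CPM in CLP and 8.96 CPM in Sham, and Cd274, the ligand of the receptor PD-1, had 52.1, 38.9 and 7.04 CPM in the same order. Pdcd1, the gene of PD-1, stood at 6.95, 10.1 and 5.76 CPM, and Tox, a factor of exhausted T cells, at 19.7, 23.8 and 44.8 CPM. Socs3, a feedback inhibitor of cytokine signalling, had 126 CPM in HDCA+CLP, 127 CPM in CLP and 28.8 CPM in Sham, whereas Il27ra, a receptor for interleukin-27, had 35.9, 28.8 and 80.0 CPM. Among 24 cytokine receptors and mediators 2 were at least 2-fold higher and 1 lower. Fkbp5, a standard glucocorticoid-induced gene, had 89.2, 91.8 and 33.3 CPM in HDCA+CLP, CLP and Sham, while the 17 genes of the glucocorticoid list had 2 at least 2-fold higher and a median of -0.06. Hif1a, the hypoxia-responsive factor, had 84.6, 91.5 and 27.5 CPM in the same order. No gene of the 27 of T cell receptor signalling or of the 42 of oxidative phosphorylation was 2-fold apart between CLP and Sham. Of 19 apoptosis regulators, 4 were at least 2-fold higher and none lower, among them Bcl2a1b, an antiapoptotic gene with near copies, at 91.5 CPM in HDCA+CLP, 88.8 CPM in CLP and 36.5 CPM in Sham.

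The remaining lists are given by their counts in CLP against Sham, beside 6.54% of all measured genes at least 2-fold higher and 1.53% at least 2-fold lower. Of 15 genes of T cell activation, 2 were at least 2-fold higher and none lower, and of 11 immediate early genes likewise 2. Of 15 glycolysis and hypoxia genes 2 were at least 2-fold higher, and of 15 heat shock genes 1 was at least 2-fold lower. Of 5 measured chemokines and cytokines 1 was at least 2-fold higher. Of 6 NK lectin-like receptors 2 were at least 2-fold higher, neither past the free RNA limit. Among them is Klrk1, an activating receptor of NK cells and CD8 T cells, at 127 CPM in HDCA+CLP, 115 CPM in CLP and 35.2 CPM in Sham. Klrd1, a receptor subunit shared by NK cells and memory CD8 T cells, had 299, 348 and 326 CPM in the same order.

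Cell cycle genes rested on few cells. Among all measured genes 6.54% were at least 2-fold higher in CLP than in Sham. Of 21 measured, 8 were at least 2-fold higher in CLP than in Sham and none lower, with a median log2 ratio of 0.82. The median was 0.00 in cells thinned to 2000 UMIs, -0.48 without cells bearing markers of other lineages and -0.29 without cells with 3 or more UMIs of cell cycle markers. Mki67, a protein of dividing cells, had 124 CPM in HDCA+CLP, 75.7 CPM in CLP and 19.8 CPM in Sham, in 19, 42 and 6 cells, and 1 cell held 58.1% of the Sham UMIs. Pclaf, which binds the replication clamp, had 178, 74.4 and 17.3 CPM in the same order. A Mki67 UMI was present in 20.5% of cells with Gzmb and 3.12% of cells without it in HDCA+CLP, 6.31% and 2.21% in CLP, and 11.1% and 0.709% in Sham, after thinning.

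Fewer genes were 2-fold apart between HDCA+CLP and CLP. Of the 4694 measured genes, 58 (1.24%) were at least 2-fold higher in HDCA+CLP than in CLP and 16 (0.341%) at least 2-fold lower. This comparison shares the CLP library with the one above. None of the 24 type I interferon genes was 2-fold apart, and 23 had a ratio above 0, with a median log2 ratio of 0.34, against 0.13 over all genes, of which 66.7% had a ratio above 0. Isg15 had 211 CPM in HDCA+CLP and 115 CPM in CLP, a log2 ratio of 0.88 (0.61 to 1.14), which ran from 0.55 to 1.16 over the alternative settings. Ifit1 had 84.6 CPM in HDCA+CLP, of which 27.4% lay in 1 cell, and 46.9 CPM in CLP. In CD8 T cells without Ccl5 the ratios were -0.20 for Isg15 and -0.59 for Ifit1, and the list's median was 0.08. None of the 27 memory genes was 2-fold apart.

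Of all measured genes, 1.24% were at least 2-fold higher in HDCA+CLP than in CLP and 0.341% at least 2-fold lower. Cytotoxic genes had 3 of 18 members at least 2-fold higher in HDCA+CLP than in CLP and none lower, with a median log2 ratio of 0.06. These were Gzmb, Gzmk and Serpinb6b, an inhibitor that shields killer cells from proteases. Serpinb6b had 258 CPM in HDCA+CLP, 127 CPM in CLP and 77.5 CPM in Sham, and its log2 ratio was 1.03 (0.78 to 1.27). The Gzmb ratio of 1.07 was 0.86 among cells with 10 or more Ccl5 UMIs, 0.71 without cells bearing cell cycle markers and 0.28 without cells bearing markers of other lineages, where 47 cells of HDCA+CLP and 139 of CLP remained. For Gzmk the ratio of 1.14 was 0.19 in that last setting, and for Serpinb6b it was -0.08. The ratios of these 3 genes were thus smaller once the cells with markers of monocytes, platelets, NK cells or gamma-delta T cells were set aside. That setting drops many cells, since 53.7% of the HDCA+CLP cells and 54.3% of the CLP cells had at least 2 monocyte marker UMIs. Its markers Cst3 and Ctss also stood at 84.6 and 126 CPM in CLP CD8 T cells without Ccl5. It can therefore drop T cells by their own transcripts, and what the dropped cells are was not tested.

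Of the 22 lists, cell cycle had the highest median in HDCA+CLP against CLP, a log2 ratio of 0.74. At least 2-fold higher were 6 of its 21 measured genes, beside 1.24% of all measured genes, and none was at least 2-fold lower. That median was 0.04 without cells bearing cell cycle markers and -0.09 without those bearing markers of other lineages. The 10 highest genes were Ccl7, Ccr9, Fabp5, Clspn, Lig1, Rrm2, Mcm3, Dctpp1, Lgals1 and Gzmb, of which Clspn, Lig1, Rrm2 and Mcm3 act in DNA replication. All Ccl7 UMIs lay in 1 cell in HDCA+CLP and in 1 cell in CLP, and Sham had 0 UMIs. Ccr9, a receptor that guides T cells to the small intestine, had 57.9 CPM in HDCA+CLP, 7.71 CPM in CLP and 10.2 CPM in Sham, in 9, 12 and 11 cells, and its log2 ratio of 2.91 was 0.88 without cells bearing cell cycle markers. Lgals1, a galectin of activated T cells, had 1352 CPM in HDCA+CLP, 587 CPM in CLP and 451 CPM in Sham. Its log2 ratio of 1.20 was 0.34 without cells bearing cell cycle markers and -0.30 without those bearing markers of other lineages.

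Beside 1.24% of all measured genes, trafficking genes had 2 of 22 members at least 2-fold higher in HDCA+CLP than in CLP. These were Ccr9 and Cxcr6, a receptor of tissue-homing effector cells, which had 64.9 CPM in HDCA+CLP, 28.8 CPM in CLP and 30.7 CPM in Sham. Its log2 ratio was 1.17 (0.66 to 1.67) and ran from 0.74 to 1.28 over the settings, while in CD8 T cells without Ccl5 it was -1.38. Itgb7, the integrin chain for gut homing, had 145 CPM in HDCA+CLP, 73.7 CPM in CLP and 133 CPM in Sham, just under 2-fold apart in HDCA+CLP against CLP. Its log2 ratio of 0.97 was -0.06 without cells bearing markers of other lineages. Cxcr3 had 98.5 CPM in HDCA+CLP and 60.0 CPM in CLP, and Ly6c2 had 1118 and 762 CPM, both under 2-fold.

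Genes of metabolism and protein folding were seldom 2-fold apart in HDCA+CLP against CLP. Ratios above 0 were also common among all measured genes, at 66.7%, with 33.3% below 0. At least 2-fold higher were 1.24% of all measured genes. Of 15 glycolysis and hypoxia genes 1 was at least 2-fold higher, Slc2a3, a glucose transporter, at 39.4 CPM in HDCA+CLP, 17.4 CPM in CLP and 19.8 CPM in Sham. Ldha, which turns pyruvate into lactate, had 547, 302 and 271 CPM in the same order, and its ratio of 0.86 was as low as 0.02 over the settings. All 15 heat shock genes had a ratio above 0, with a median log2 ratio of 0.25, against 0.13 over all genes. Hsp90ab1, a chaperone, had 1661 CPM in HDCA+CLP, 1157 CPM in CLP and 1291 CPM in Sham. Of 42 oxidative phosphorylation genes, 36 had a ratio above 0 and none was 2-fold apart, with a median of 0.24. Of 17 glucocorticoid response genes 15 had a ratio below 0, with a median of -0.24. No gene of the inhibitory, T cell receptor signalling, MHC class I or cytokine receptor lists was 2-fold apart in this comparison.

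The genes lower in HDCA+CLP than in CLP were few. Birc3, an inhibitor of apoptosis downstream of NF-kappaB, had 17.4 CPM in HDCA+CLP, 41.2 CPM in CLP and 21.1 CPM in Sham, with ratios of -1.25 in HDCA+CLP against CLP and 0.96 in CLP against Sham. Serpina3g and Birc3 were thus highest in CLP. Also at least 2-fold lower and past the free RNA limit were Prr7, Pim2, Zranb1, Gigyf1, Arhgap31 and Ttc13.

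Genes that sense bile acids were hardly present. Gpbar1 and Nr1h4, which encode the membrane and nuclear bile acid receptors, had 0 UMIs in these cells in all 3 libraries, with exact upper 95% bounds of 4.27 CPM in HDCA+CLP, 1.24 CPM in CLP and 2.36 CPM in Sham. None of the 7 measured genes of cholesterol and bile acid sensing was 2-fold apart between HDCA+CLP and CLP. Between CLP and Sham 1 was at least 2-fold higher and 2 at least 2-fold lower, beside 6.54% and 1.53% of all measured genes. Rora, a nuclear receptor that binds sterols, had 31.3 CPM in HDCA+CLP, 41.9 CPM in CLP and 8.96 CPM in Sham. Abcg1, a cholesterol exporter, had 12.7, 18.4 and 49.3 CPM, and Mylip, a ligase that degrades the LDL receptor, had 27.8, 30.2 and 60.8 CPM in the same order.

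**Figure D5:**
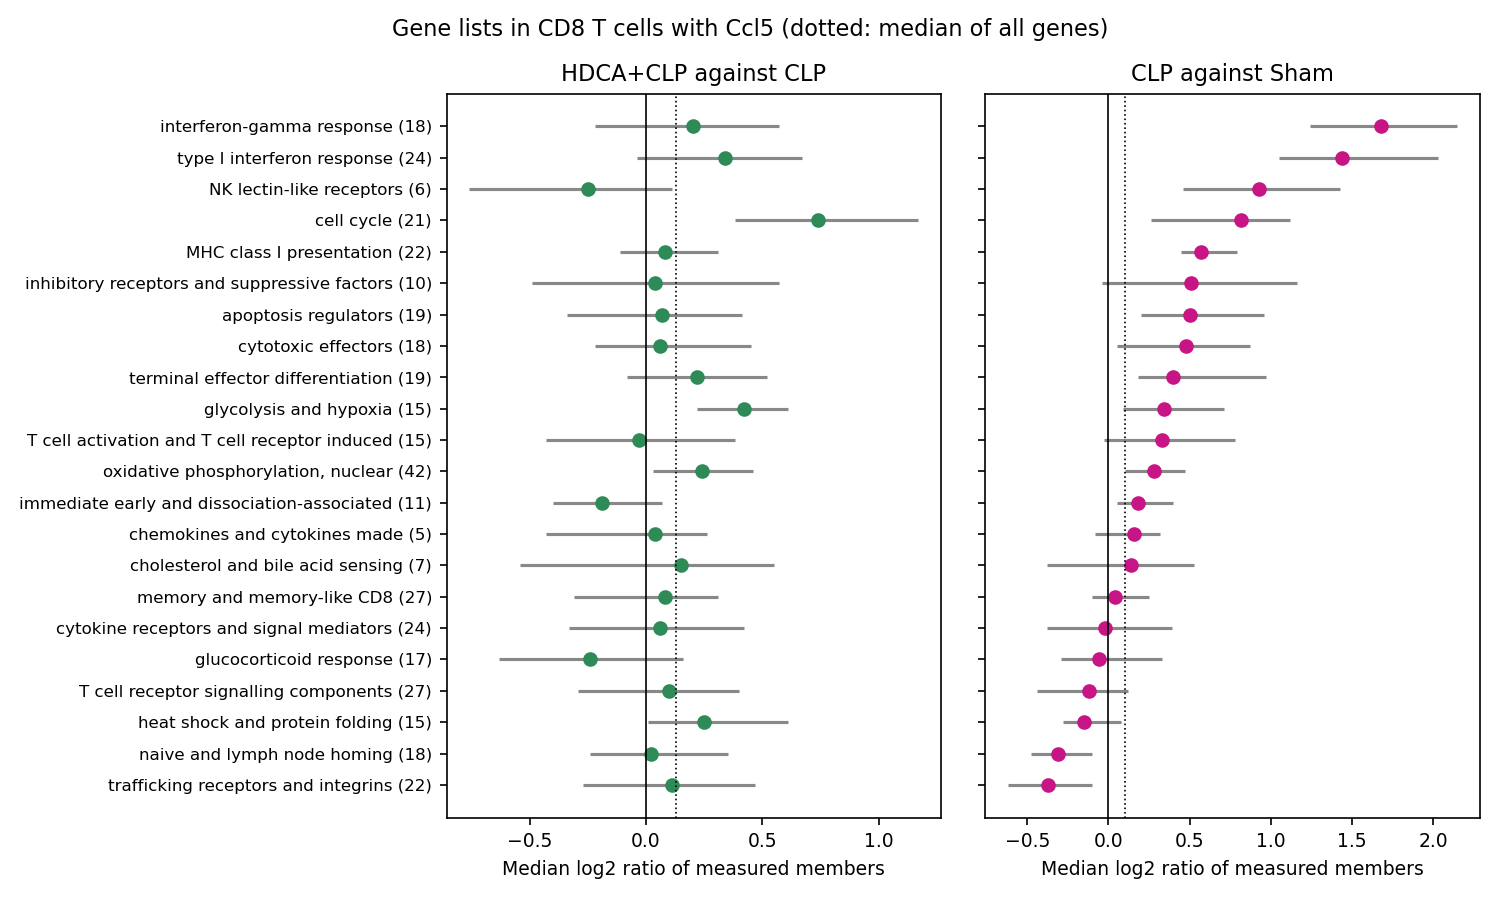
Median log2 ratio of the measured members of 22 gene lists (number of measured members in brackets) for HDCA+CLP against CLP (left) and CLP against Sham (right); grey lines join the medians of the members' lower and upper counting interval bounds, and the dotted line is the median of all measured genes (0.13 and 0.10). The interferon lists are highest in CLP against Sham (1.68 and 1.44) and cell cycle in HDCA+CLP against CLP (0.74).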

How the data were processed

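Blood cells were profiled as 3 droplet libraries, 1 a group. The deposited files hold raw UMI counts for 31053 genes per cell barcode, made with Cell Ranger 5.0.1 per the file headers. Seurat 4.0.6, R 4.0.3 and the genome build mm39 are named without a role in the submitters' processing notes. No deposited file used here assigns cells to types, so cells were gated by UMI counts as the report states. RefSeq promoters are from GRCm38.p6, and no coordinate was converted.

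The UMIs of a library's cells were added up and scaled to 1000000 (CPM). Intervals are exact Poisson for levels, exact Clopper-Pearson for shares and exact conditional binomial for ratios. A gene at 0 was set against a floor of 3 counts. Genes counted as 2-fold apart needed a mean of at least 20 CPM over the libraries. With 1 library a group no test was made. Doublets were scored against 2 simulated doublets per cell, called at 0.8% of cells per 1000 barcodes and kept, with an alternative that leaves them out. Ratios were checked on simulated data. Python 3.11.15, NumPy 2.4.6, SciPy 1.17.1, pandas 2.3.3, scikit-learn 1.9.0 and matplotlib 3.10.9 were used.

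Genes were named by a rule: the 10 highest and 10 lowest of each comparison by the interval bound nearest to 0, among genes 2-fold apart and past the free RNA limit (9 in all were lower in HDCA+CLP than in CLP), the 12 highest and 8 lowest with against without Ccl5, the 3 highest and 3 lowest of each of 22 gene lists, and a fixed set. Mitochondrially encoded, ribosomal protein, haemoglobin, immunoglobulin, T cell receptor, predicted and Y-linked genes and Xist were left out. The cells, lists and rule were chosen with earlier results of these data known. Some genes that the rule names are not reported here. Depth of each library stands in the report.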

Additional observations from a re-analysis of the deposited data

Results flagged for a closer look

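Gzmb stood out because its difference between HDCA+CLP and CLP had opposite directions in the CD8 T cells with and without Ccl5. With Ccl5 the log2 ratio was 1.07 (0.98 to 1.16), from 1897 CPM in HDCA+CLP and 903 CPM in CLP. Without Ccl5 it was -1.33 (-1.84 to -0.84), from 35.3 CPM in HDCA+CLP and 88.6 CPM in CLP. B cells of the same libraries held 0 and 116 CPM in that order. The difference between the 2 ratios was not tested, and each rests on 1 library a group.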

How the results depend on the processing

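With 1 library a group, differences between mice, preparations and treatments cannot be told apart. Depth was lower in HDCA+CLP, and genes under 20 CPM rest on few UMIs. No paired analysis was possible because each group is 1 library. A value stayed close where it lay within its counting interval (for a list, between the medians of its genes' bounds, and for the median of all genes within a fixed margin), a count of genes where it was within 1.5 times, and a change of sign was counted for shares and for ratios or medians at least 2-fold from 0. Of the values that lead the text, 179 stayed close under the alternatives, 36 moved and 1 changed sign. Medians nearer to 0 also took the opposite sign, 16 of them among the close values and 1 among the moved. Of the other values 5221 stayed close, 633 moved and 18 changed sign, and 257 of the close and 180 of the moved, the cell cycle median among them, took the opposite sign. The cause of these changes was not tested except where fewer cells or genes enter by construction.

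The counts of genes 2-fold apart were 58 higher and 16 lower in HDCA+CLP against CLP, and 307 higher and 72 lower in CLP against Sham. In that order of comparisons and directions they were 13, 3, 123 and 25 at a mean of at least 50 CPM, 194, 60, 493 and 164 at 10 CPM, and 953, 511, 1307 and 643 with no filter. In HDCA+CLP against CLP they were 37 higher and 26 lower with size factors, 128 and 42 with at least 10 Ccl5 UMIs, 315 and 153 in thinned cells and 222 and 133 without cells bearing markers of other lineages. There, 10 were lower among genes past the free RNA limit, 31 lower with at most 5% mitochondrial UMIs and 108 higher without called doublets. In CLP against Sham 249 were lower in thinned cells and 194 without cells bearing markers of other lineages, which left 47 cells in HDCA+CLP, 139 in CLP and 59 in Sham.

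The log2 ratios of shares with at least 10 Ccl5 UMIs, an alternative chosen after seeing the data, were -2.26 of all cells, -0.93 of T cells and -1.04 of CD8 T cells in HDCA+CLP against CLP, and 0.93, 1.54 and 1.65 in CLP against Sham. In thinned cells they were -1.44 of all cells and -0.12 of T cells in HDCA+CLP against CLP, and 2.03 of CD8 T cells in CLP against Sham. With at most 5% mitochondrial UMIs the share of all cells had -1.37 in HDCA+CLP against CLP and -0.13 in CLP against Sham, against 0.51 at 10%. The median of the memory list in CLP against Sham was -0.13 with at least 10 Ccl5 UMIs.

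Genes changed direction mainly in small sets of cells. In CLP against Sham, Lig1 was -0.05 as a mean over cells, -1.73 without cells bearing markers of other lineages and -1.77 without those bearing cell cycle markers. In thinned cells Fabp5 was -1.58, and Ttc13 was 0.06 in HDCA+CLP against CLP. Without cells bearing markers of other lineages, CLP against Sham gave Bak1 -0.08, Cxcl10 -0.32, Fabp5 -1.15, Hist1h2ap -5.80, Mki67 -0.41 and Pclaf -2.43, and HDCA+CLP against CLP gave Dtx1 -0.08, Lgals1 -0.30, Mcm3 -0.10, Serpinb6b -0.08 and Slc2a3 -0.55. Without cells bearing cell cycle markers, Hist1h2ap was -1.08 in CLP against Sham and Slc2a3 -0.10 in HDCA+CLP against CLP.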

Other observations

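T cell receptor beta variable genes were read in few of the cells. A Trbv UMI was present in 19 of 108 cells with Ccl5 in HDCA+CLP (17.6%), 56 of 337 in CLP (16.6%) and 31 of 150 in Sham (20.7%). The most frequent was Trbv16 in HDCA+CLP, in 6 of the 19 cells, Trbv12-2 in CLP, in 9 of the 56 cells, and Trbv16 in Sham, in 4 of the 31 cells. Between 12 and 17 different Trbv genes were seen in a library. Clones cannot be read from these counts.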
